A study of Mus musculus with 75 samples.

Results

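The 5 long noncoding RNAs Malat1, Neat1, Kcnq1ot1, Dleu2 and Gas5 were followed through ribosome fractions of mouse CD4 effector T cells. They were chosen by their Ensembl identifiers (ENSMUSG00000092341, ENSMUSG00000092274, ENSMUSG00000101609, ENSMUSG00000097589 and ENSMUSG00000053332), so as to set RNAs known from the nucleus beside Gas5. The rule did not use their values, though earlier results of these data were known when it was made. They are 5 of the 53465 gene identifiers in each count table, and all 5 passed the filter on low counts in both assays, among 10751 genes tested in RiboTag and 12428 in SPEED. RefSeq annotates each of them as a long noncoding RNA.

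The study asked how regulatory T cells (Tregs), which restrain other T cells, act on translation while CD4 T cells are being activated. In the RiboTag assay, effector cells (CD4+CD25-) came from spleen and lymph nodes of 5 mice. Their parents were of a strain with an altered Rpl22 gene (B6N.129-Rpl22tm1.1Psam/J) and a strain with a Cre transgene (B6.Cg-Tg(Cd4-cre)1Cwi/BfluJ), so that Cre, driven from the Cd4 promoter, switches on a tagged form of the ribosomal protein Rpl22. Cells of each mouse were rested with IL7, stimulated with beads that carry anti-CD3 and anti-CD28, or given these beads together with Tregs. RNA was sequenced before (Input) and after (IP) precipitation of the tagged ribosomes, 30 libraries in all. All RiboTag groups, the rested controls included, carry both the tag and Cre, so there was no culture without tagged ribosomes to show the level of RNA that an IP holds without them. In the SPEED assay, cells of 4 mice labelled B6.SJL-Ptprca Pepcb/BoyJ (the series' design text calls them C57/B6) were untreated, stimulated, stimulated with Tregs, or stimulated and given HHT for 10 min. RNA was taken from Input and from polysomal (Pol) and subpolysomal (SubPol) sucrose fractions, 45 libraries in all. HHT fractions came from mice 1 to 3, and the HHT Input libraries in the fit from mice 1 and 3. The sources used here do not give the age of the mice or what HHT and SPEED stand for.

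Malat1 and Neat1 are neighbouring genes whose RNAs are kept in the nucleus. Malat1 RNA gathers at nuclear speckles, which are stores of splicing factors, and Neat1 RNA is the scaffold around which paraspeckles form. Kcnq1ot1 is transcribed from the paternal chromosome and silences neighbouring imprinted genes, and Dleu2 is the host transcript from which the microRNAs miR-15a and miR-16 are cut. Gas5 is different in kind. It is spliced, hosts small nucleolar RNAs in its introns, and reaches the cytoplasm, where it enters ribosomes on short open reading frames and is broken down when translated. Gas5 is known as a TOP transcript, an RNA that starts with a C and a run of pyrimidines. Translation of TOP RNAs is governed by mTOR, a kinase that is switched on when T cells are activated.

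The start of Gas5 is shown because the pyrimidine run is what places it among the TOP transcripts. The windows below hold 20 bases before and 40 bases from an annotated start (RefSeq, GRCm38.p6). Capitals mark a C within 5 bases of the start that is followed without a break by at least 4 pyrimidines (C or T), read on the strand of the gene only. Gas5 has 8 RefSeq transcripts, and the windows at 2 annotated starts are given, the outermost start first.
Gas5 at chr1:161034581-161034640, plus strand: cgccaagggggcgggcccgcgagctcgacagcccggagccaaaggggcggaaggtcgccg
Gas5 at chr1:161035146-161035205, plus strand: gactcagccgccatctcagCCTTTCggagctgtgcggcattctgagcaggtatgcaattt
Malat1 at chr19:5802633-5802692, minus strand: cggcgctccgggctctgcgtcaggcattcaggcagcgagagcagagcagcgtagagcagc
Dleu2 at chr14:61682334-61682393, minus strand: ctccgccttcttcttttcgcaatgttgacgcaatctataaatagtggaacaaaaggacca
Kcnq1ot1 at chr7:143296508-143296567, minus strand: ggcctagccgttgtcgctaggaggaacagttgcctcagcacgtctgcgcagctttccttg
The inner Gas5 start held a run of 6 pyrimidines that begins 1 base before the annotated start. The outermost Gas5 start and those of Malat1, Dleu2 and Kcnq1ot1 held no such run with its C within 5 bases of the start. Among 32851 promoters searched in the same way, 6027 (18.3%) held such a run, and 823 (2.51%) held it counted from a C exactly at the start. The inner Gas5 start meets this stricter rule too, as its annotated start is itself a C followed by 4 pyrimidines. The counts in the files are per gene, so they do not tell which Gas5 start was used.

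The microRNAs that lie within Dleu2 are shown because they are the known products of that transcript. Their mature 5p forms share the seed (bases 2 to 8, in capitals).
mmu-miR-15a-5p at chr14:61632075-61632096, minus strand: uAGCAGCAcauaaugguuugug
mmu-miR-16-5p at chr14:61631936-61631957, minus strand: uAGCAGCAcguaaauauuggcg
The libraries measured long RNA, so the Dleu2 values below are of the host transcript and say nothing of these microRNAs.

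By RefSeq on GRCm38.p6, Malat1 lies on chromosome 19 at 5795690 to 5802672 and Neat1 beside it at 5824708 to 5845480. Kcnq1ot1 lies on chromosome 7 at 143213111 to 143296547, wholly inside the potassium channel gene Kcnq1. Dleu2 lies on chromosome 14 at 61602836 to 61682373 and overlaps Trim13 by 7452 bp and Kcnrg by 5377 bp, both on the opposite strand. Gas5 lies on chromosome 1 at 161034601 to 161038539 and overlaps Zbtb37, on the opposite strand, by 264 bp. The library kit does not mark strand, so reads in those overlaps cannot be told apart, and the values of Kcnq1ot1 and Dleu2 are uncertain to that extent.

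Depth was 1658481 to 2824875 gene counts per RiboTag library and 1566501 to 4621104 per SPEED library. Levels are given as CPM, which are counts brought to 1 common library size after TMM scaling, so each library is relative to its own total, and a ratio of fractions is relative to the typical gene. In these bulk samples, fewer cells of a type and less RNA per cell cannot be told apart. The rested RiboTag libraries of mice 1 and 2 stand apart from those of mice 3 to 5. The untreated SubPol library of mouse 3 held 12851 detected genes, against 13556 to 13735 in the other untreated SubPol libraries. Values without these libraries are given below where leaving them out changed a call or a sign, or moved a value most. The fixed marker lists of CD4 T cells, Tregs and other cell types need gene symbols that were not matched to the identifiers here, so the labelled cell type was not checked.

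The fitted ratios of the 5 RNAs were below 0, the side with fewer ribosomes, in every ratio of fractions. In the RiboTag assay, Malat1 and Neat1 were called lower in IP than in Input in rested, stimulated and Treg cultures, and Kcnq1ot1, Dleu2 and Gas5 were not called in these. In the SPEED assay, Malat1, Neat1, Dleu2 and Gas5 were called lower in Pol than in SubPol in untreated, stimulated and Treg cultures, and Kcnq1ot1 in stimulated cultures. A call means that the Benjamini-Hochberg adjusted p over all genes tested was under 0.05 in the two-sided quasi-likelihood test of edgeR. Lower in IP, 2 of 5 RNAs were called in each culture, against 3.54% of all genes in rested, 0.772% in stimulated and 1.18% in Treg cultures. Lower in Pol, 4 of 5 were called in untreated, 5 of 5 in stimulated and 4 of 5 in Treg cultures, against 17.8%, 21.8% and 21.6% of all genes. None of the 5 was called higher in either ratio. The median log2 ratio of the 5 RNAs for IP over Input was -1.55 in rested, -1.74 in stimulated and -0.96 in Treg cultures. For Pol over SubPol it was -2.0 in untreated, -2.16 in stimulated, -1.94 in Treg and -0.61 in HHT cultures, in the last of which only Neat1 was called lower. The medians of all genes lay between -0.025 and 0.038 in these fits. The stimulated IP median is the value of Kcnq1ot1, which rests on few counts. Input still holds the RNA that is precipitated, whereas SubPol does not hold that of Pol, so the sizes of these 2 ratios are not set against each other.

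**Figure D1:**
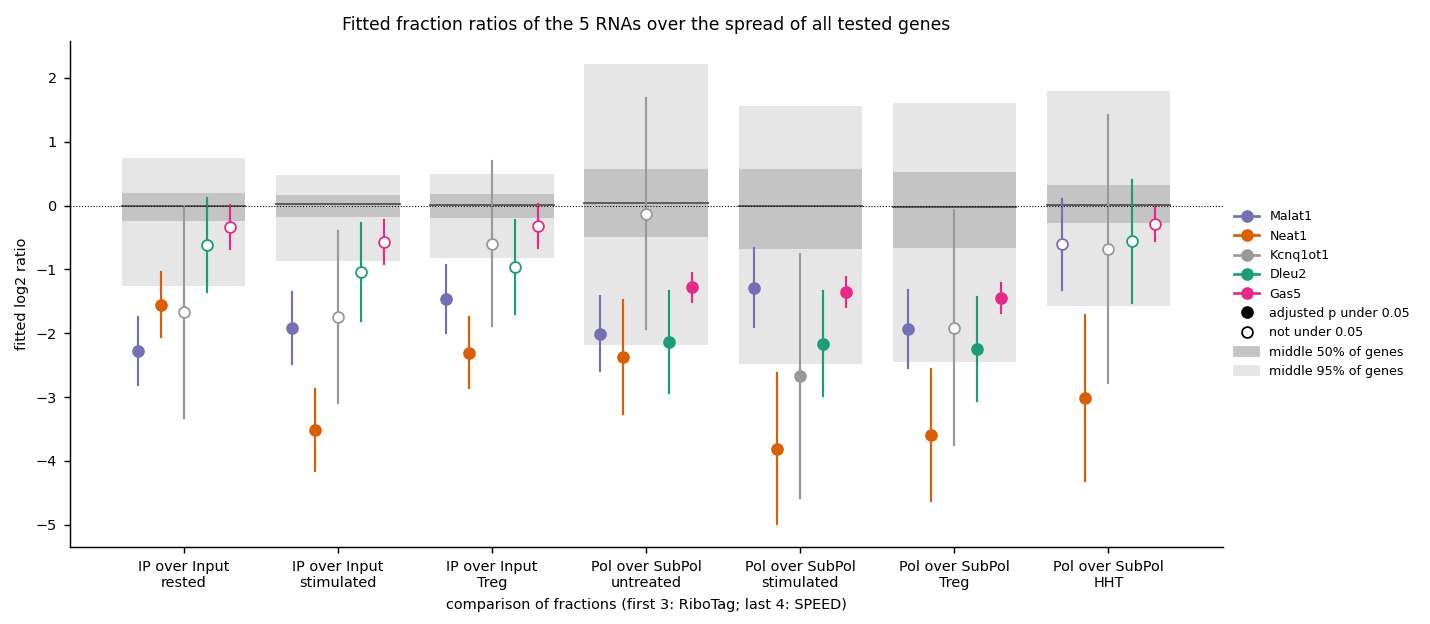
Fitted log2 ratios of fractions for the 5 RNAs (points, with 95% intervals as bars) in the 3 RiboTag and 4 SPEED cultures, over the spread of all genes tested (dark grey, the middle 50%; light grey, the middle 95%). Filled points passed the test. Neat1 lies below the light band in each of the 7 comparisons, and Gas5 lies inside it in each.

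Neat1 was among the RNAs furthest from ribosomes. RefSeq lists 2 Neat1 transcripts, and the counts per gene do not tell which of them was measured. In stimulated RiboTag cultures it stood at 40.1, 49.0, 30.5, 43.9 and 48.3 CPM in Input of mice 1 to 5 and at 1.84, 4.83, 4.55, 2.38 and 4.45 CPM in IP. Those IP values rest on 4 to 11 counts a library. Every IP library lay far below every Input library, and the fitted IP was 11.5-fold lower (log2 ratio -3.52, SE 0.32, edgeR adjusted p = 1.51e-09, n = 5 mice), with 0.186% of all genes lower. In rested cultures Neat1 stood at 75.6, 76.4, 113, 81.1 and 67.3 CPM in Input and at 34.4, 41.7, 17.1, 18.5 and 28.9 CPM in IP. The rested groups did not overlap either, and the log2 ratio was -1.55 (SE 0.25, edgeR adjusted p = 0.000139). With mice 3 to 5 alone the rested ratio of Neat1 was -2.01 (edgeR adjusted p = 0.000607). In cultures with Tregs, Neat1 was at 45.2, 53.9, 39.3, 47.8 and 64.0 CPM in Input and at 14.8, 9.57, 5.58, 4.72 and 15.8 CPM in IP, with a log2 ratio of -2.31 (SE 0.27, edgeR adjusted p = 1.05e-06).

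In sucrose fractions Neat1 was also lower in Pol, most so in stimulated and Treg cultures. Stimulated cells held 18.2, 24.5, 19.3 and 25.7 CPM in SubPol of mice 1 to 4 and 0, 2.56, 0.739 and 4.38 CPM in Pol, from 0 to 6 counts a Pol library. The groups did not overlap, and Pol was 14-fold lower (log2 ratio -3.81, SE 0.59, edgeR adjusted p = 1.16e-06, n = 4 mice), with 0.756% of genes lower. In untreated cells the values were 97.7, 60.3, 50.1 and 41.4 CPM in SubPol and 18.4, 1.47, 15.9 and 12.1 CPM in Pol. Mouse 2 had the lowest Pol value of this group, and the fitted ratio was -2.37 (SE 0.44, edgeR adjusted p = 3.11e-05). With Tregs, Neat1 was at 32.4, 40.1, 38.0 and 36.3 CPM in SubPol and at 1.35, 2.59, 4.84 and 2.60 CPM in Pol, a log2 ratio of -3.60 (SE 0.51, edgeR adjusted p = 2.61e-07). No Neat1 Pol library reached the level of a SubPol library of its own culture in these 3 cultures.

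Malat1, the speckle RNA, was also low in both ribosome preparations. In rested RiboTag cultures it stood at 59.9, 85.7, 134, 124 and 117 CPM in Input of mice 1 to 5 and at 6.48, 33.2, 25.3, 18.1 and 24.0 CPM in IP. Mouse 1 was lowest in both fractions, and IP was 4.87-fold lower (log2 ratio -2.28, SE 0.26, edgeR adjusted p = 4.53e-07), or -2.47 with mice 3 to 5 alone (edgeR adjusted p = 1.51e-08). In stimulated cultures Malat1 was at 55.9, 39.3, 40.2, 47.7 and 44.3 CPM in Input and at 14.7, 15.4, 9.92, 10.5 and 9.31 CPM in IP. The log2 ratio was -1.92 (SE 0.28, edgeR adjusted p = 4.35e-05). With Tregs, Malat1 was at 50.7, 33.2, 41.1, 56.5 and 58.0 CPM in Input and at 20.2, 20.9, 16.1, 12.6 and 16.3 CPM in IP, a log2 ratio of -1.46 (SE 0.26, edgeR adjusted p = 0.00162). IP and Input did not overlap in any of the 3 cultures.

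In SPEED, untreated cells held Malat1 at 75.5, 47.1, 79.2 and 55.7 CPM in SubPol and at 21.7, 8.51, 21.0 and 12.5 CPM in Pol, a log2 ratio of -2.01 (SE 0.29, edgeR adjusted p = 5.36e-07, n = 4 mice). Stimulated cells held it at 21.1, 24.5, 21.8 and 34.7 CPM in SubPol and at 9.68, 6.83, 11.1 and 14.6 CPM in Pol. The groups were apart in both, and the stimulated ratio was -1.29 (SE 0.31, edgeR adjusted p = 0.000695). Setting Pol over Input in place of SubPol left a Malat1 ratio of -0.75 that did not pass (edgeR adjusted p = 0.134). With Tregs the ratio of Pol over SubPol was -1.94 (SE 0.30, edgeR adjusted p = 1.54e-06), from 35.5, 31.4, 37.8 and 51.7 CPM in SubPol and 8.75, 10.4, 12.3 and 8.46 CPM in Pol.

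Gas5, the ribosome-associated RNA of the set, was not called lower in IP than in Input in the main edgeR fit, though some alternatives called it. In the main fit it was called lower in Pol than in SubPol in untreated, stimulated and Treg cells. In stimulated RiboTag cultures it stood at 219, 176, 196, 190.1 and 161 CPM in Input of mice 1 to 5 and at 164, 84.3, 134, 135 and 117 CPM in IP. The groups overlapped, and in each mouse IP was below Input, most so in mouse 2. The log2 ratio was -0.57 (SE 0.17, edgeR adjusted p = 0.102) with 6.42% of genes lower, and it passed with the mouse as a block (-0.59, edgeR adjusted p = 0.034), with the culture as a block (-0.59, edgeR adjusted p = 0.000497) and with mice 3 to 5 alone (-0.52, 0.0391). The share of all genes called lower was 0.772% without a block, 1.47% with the mouse block and 3.56% with the culture block.

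Gas5 in rested cultures was at 139, 125, 219, 188 and 211 CPM in Input and at 96.0, 96.2, 175, 170.2 and 163 CPM in IP. Mice 1 and 2 were lowest in both fractions, so the ratio of the fractions was steadier than the levels. The log2 ratio was -0.33 (95% interval -0.68 to 0.02, edgeR adjusted p = 0.251), or -0.27 with mice 3 to 5 alone (edgeR adjusted p = 0.143). With Tregs, Gas5 was at 188, 156, 163, 174 and 151 CPM in Input and at 149.9, 119.5, 118, 119.5 and 161 CPM in IP, a log2 ratio of -0.32 (95% interval -0.67 to 0.03, edgeR adjusted p = 0.346). Mouse 5 alone had more Gas5 in IP than in Input there. With the culture as a block the ratio passed in rested (-0.34, edgeR adjusted p = 0.0131, with 8.85% of all genes called lower) and in Treg cultures (-0.33, edgeR adjusted p = 0.026, with 5.32% called lower). The Gas5 ratio lay inside the middle 95% of genes and below the middle 50% in the 3 cultures, where 19.3% (rested) and 16.6% (Treg) of genes were lower.

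In SPEED, Gas5 was steady between mice and always lower in Pol. Untreated cells held 180.4, 192, 229 and 213 CPM in SubPol and 87.0, 79.2, 87.2 and 80.4 CPM in Pol. Stimulated cells held 199.5, 222, 212 and 251 CPM in SubPol and 78.8, 90.9, 77.1 and 103 CPM in Pol. Cells with Tregs held 212, 214, 178 and 233 CPM in SubPol and 72.7, 68.3, 70.0 and 99.5 CPM in Pol. SubPol and Pol were far apart in the 3 cultures, and Pol was 2.43-fold lower in untreated (log2 ratio -1.28, SE 0.11, edgeR adjusted p = 2.68e-11), 2.55-fold in stimulated (-1.35, SE 0.12, edgeR adjusted p = 4.3e-12) and 2.72-fold in Treg cultures (-1.45, SE 0.12, edgeR adjusted p = 1.25e-12). These had the lowest p-values of the 5 RNAs, while 7.38%, 9.90% and 8.78% of all genes had a lower ratio. The stimulated Input libraries, at 145, 141, 175 and 138 CPM, lay between the 2 fractions.

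Dleu2, the microRNA host, had few counts in RiboTag and a clear difference in SPEED. In stimulated RiboTag cultures it was at 10.9, 11.6, 9.19, 13.8 and 6.58 CPM in Input and at 9.19, 4.39, 4.55, 3.81 and 3.24 CPM in IP. Mouse 1 was highest in IP and overlapped the Input values, and the log2 ratio was -1.05 (SE 0.38, edgeR adjusted p = 0.18). The ratio was -0.62 in rested (edgeR adjusted p = 0.322) and -0.96 in Treg cultures (edgeR adjusted p = 0.166), where the IP library of mouse 4 held 1 count. In SPEED, stimulated cells held Dleu2 at 15.7, 23.8, 24.1 and 14.5 CPM in SubPol and at 5.02, 5.54, 3.20 and 3.65 CPM in Pol. The groups did not overlap, and Pol was 4.48-fold lower (log2 ratio -2.16, SE 0.41, edgeR adjusted p = 3.13e-05), or -1.16 against Input, where it did not pass (edgeR adjusted p = 0.0713). The Pol over SubPol ratio was -2.14 in untreated (edgeR adjusted p = 3.08e-05) and -2.25 in Treg cultures (edgeR adjusted p = 1.44e-05).

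Kcnq1ot1, the imprinted antisense RNA, was at the edge of detection, with 0 to 31 counts a library. In rested RiboTag cultures it had 2, 12, 3, 5 and 3 counts in Input of mice 1 to 5 and 2, 6, 0, 0 and 0 in IP. In stimulated cultures the counts were 5, 6, 14, 17 and 24 in Input and 5, 3, 4, 2 and 5 in IP. The fitted ratios, -1.66 in rested (edgeR adjusted p = 0.224) and -1.74 in stimulated cultures (edgeR adjusted p = 0.202), did not pass. With mice 3 to 5 alone, whose rested IP libraries hold no count, the fitted rested ratio was -5.08 (edgeR adjusted p = 0.0576), which is no bound on the difference, and intervals as wide as -3.32 to -0.01 in rested cultures show how little these counts fix. In SPEED stimulated cells Kcnq1ot1 had 4, 8, 29 and 10 counts in SubPol and 0, 2, 6 and 0 in Pol. The log2 ratio was -2.67 (SE 0.95, edgeR adjusted p = 0.0192), a call lost without mouse 1 (edgeR adjusted p = 0.0514) or mouse 4 (0.098) and with Pol set over Input (-1.87, 0.243). In untreated cells the ratio was -0.13 (95% interval -1.94 to 1.68), with 2 of 4 mice below 0.

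**Figure D2:**
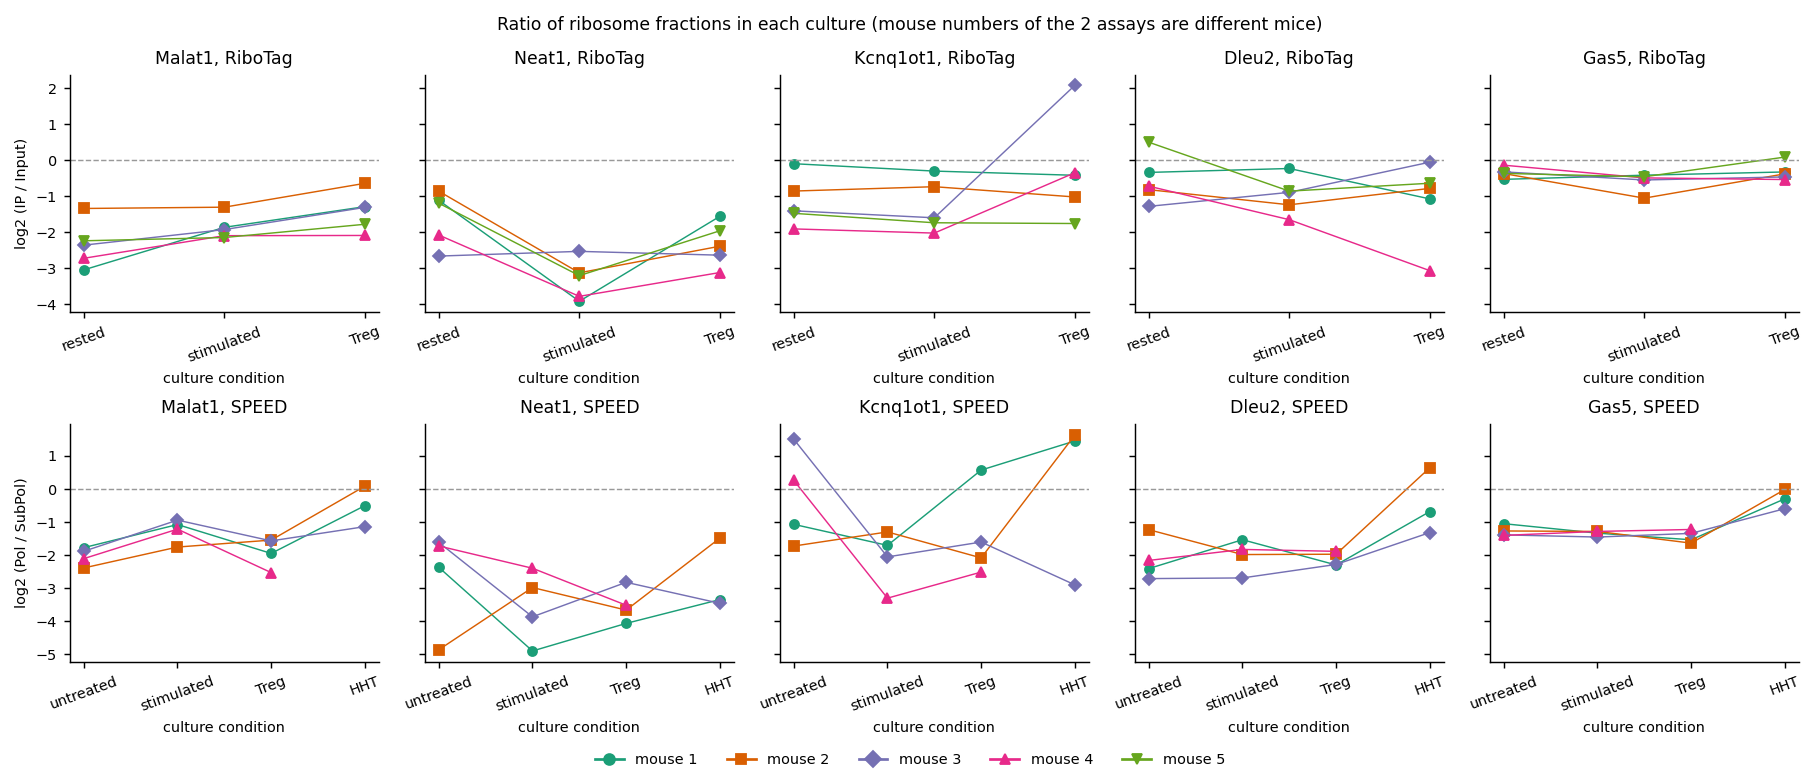
Log2 ratio of fractions for each RNA in every culture, IP over Input in RiboTag (upper row) and Pol over SubPol in SPEED (lower row), 1 line per mouse, from log2 CPM with a prior count of 2. Gas5 lies between -1.05 and 0.086 in RiboTag, lowest in mouse 2 of the stimulated cultures, and between -1.64 and -1.05 in SPEED without HHT, and Neat1 lines lie below 0 in every culture.

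Set beside the nuclear RNAs in the same culture, Gas5 lay higher in IP over Input than Malat1 and Neat1 in 15 of 15 cultures. The mean difference in log2 IP over Input, Gas5 minus the other RNA, was 1.46 ± 0.57 for Malat1 and 1.99 ± 0.41 for Neat1 (SD over 5 mice, each the mean of 3 cultures). It was higher than Dleu2 in 11 of 15 cultures, by 0.46 ± 0.55, and than Kcnq1ot1 in 10 of 15, by 0.49 ± 0.71. An exact sign-flip test over mice (two-sided) gave p = 0.0625 for Malat1, Neat1 and Dleu2, the smallest that 5 mice allow, and p = 0.312 for Kcnq1ot1. Adjusted over the 8 tests of this family the former was 0.167, so the test cannot pass in this design.

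In Pol over SubPol the gap between Gas5 and Malat1 was small. The mean difference was 0.36 ± 0.20 (SD over 4 mice, each the mean of its cultures), with Gas5 higher in 10 of 15 cultures. Mouse 4 had no HHT culture, so its mean leaves HHT out, unlike those of mice 1 to 3. It was 0.76 ± 0.26 in untreated cells, higher in 4 of 4 mice, and -0.09 ± 0.42 in stimulated cells, higher in 1 of 4. Gas5 was higher than Neat1 in 15 of 15 cultures, by 1.95 ± 0.59, and than Dleu2 in 13 of 15, by 0.62 ± 0.40. For Kcnq1ot1 the difference was -0.11 ± 0.59. The exact sign-flip p was 0.125 for Malat1, Neat1 and Dleu2, the smallest that 4 mice allow (0.167 after adjustment over the 8 tests), and 0.75 for Kcnq1ot1. So Gas5 was above Malat1 in IP over Input of every culture, though in mouse 2 when stimulated the values were as near as -1.05 and -1.31, while in Pol over SubPol of stimulated cells their ratios, -1.35 and -1.29, differed by less than the spread between mice.

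Malat1 and Neat1 fell in total RNA on stimulation, in both assays. Malat1 in RiboTag Input was 2.29-fold lower in stimulated than in rested cells (log2 change -1.20, SE 0.25, edgeR adjusted p = 8.84e-05) and Neat1 1.95-fold lower (-0.96, SE 0.24, edgeR adjusted p = 0.000952). Both were lower in 5 of 5 mice with no overlap between groups, in a comparison in which 31.4% of all genes were called lower. With mice 3 to 5 alone the changes were -1.47 for Malat1 (edgeR adjusted p = 2.27e-07) and -1.06 for Neat1 (0.00472). In SPEED Input, Malat1 went from 58.0, 21.5, 54.7 and 34.7 CPM in untreated to 20.6, 13.8, 16.3 and 19.1 CPM in stimulated cells (log2 change -1.28, SE 0.29, edgeR adjusted p = 0.000265). Neat1 went from 49.6, 63.3, 48.1 and 34.7 CPM to 15.2, 10.3, 19.9 and 17.1 CPM (log2 change -1.66, SE 0.43, edgeR adjusted p = 0.0013). All 4 mice were lower for both RNAs, in a comparison that called 26.5% of genes lower and 54.4% in either direction. SubPol followed Input, with Malat1 changed by -1.35 (edgeR adjusted p = 0.000122) and Neat1 by -1.52 (edgeR adjusted p = 0.00284), both lower in 4 of 4 mice without overlap (without mouse 1, Neat1 had an adjusted p of 0.0507), and 24.5% of genes called lower. In Pol, where 27.3% of genes were called lower, Neat1 changed by -2.95 (edgeR adjusted p = 6.3e-05) and Malat1 by -0.63, which did not pass (edgeR adjusted p = 0.0811).

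Gas5 in Input changed by 0.10 on the log2 scale in RiboTag (95% interval -0.25 to 0.44, edgeR adjusted p = 0.645) and by 0.27 in SPEED (SE 0.11, edgeR adjusted p = 0.0364). With RiboTag mice 3 to 5 alone, whose rested Input held the higher Gas5 levels, the change was -0.15 (edgeR adjusted p = 0.276), so its sign there depended on the rested libraries of mice 1 and 2. In SPEED Input, Gas5 went from 125, 122, 128 and 119 CPM in untreated to 145, 141, 175 and 138 CPM in stimulated cells. The groups did not overlap, but the call was lost without mouse 1 (edgeR adjusted p = 0.0881), mouse 2 (0.0652) or mouse 3 (0.0858), and without the filter on low counts (0.0883). Dleu2 changed by -0.27 in RiboTag Input (95% interval -0.99 to 0.45) and by -0.31 in SPEED Input (95% interval -1.07 to 0.45), neither called. Kcnq1ot1 changed by 1.24 in RiboTag Input (edgeR adjusted p = 0.0907), which passed without mouse 2 (2.00, edgeR adjusted p = 0.0153) and with mice 3 to 5 alone (2.04, 0.0268), and by 0.09 in SPEED Input (95% interval -1.58 to 1.77).

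**Figure D3:**
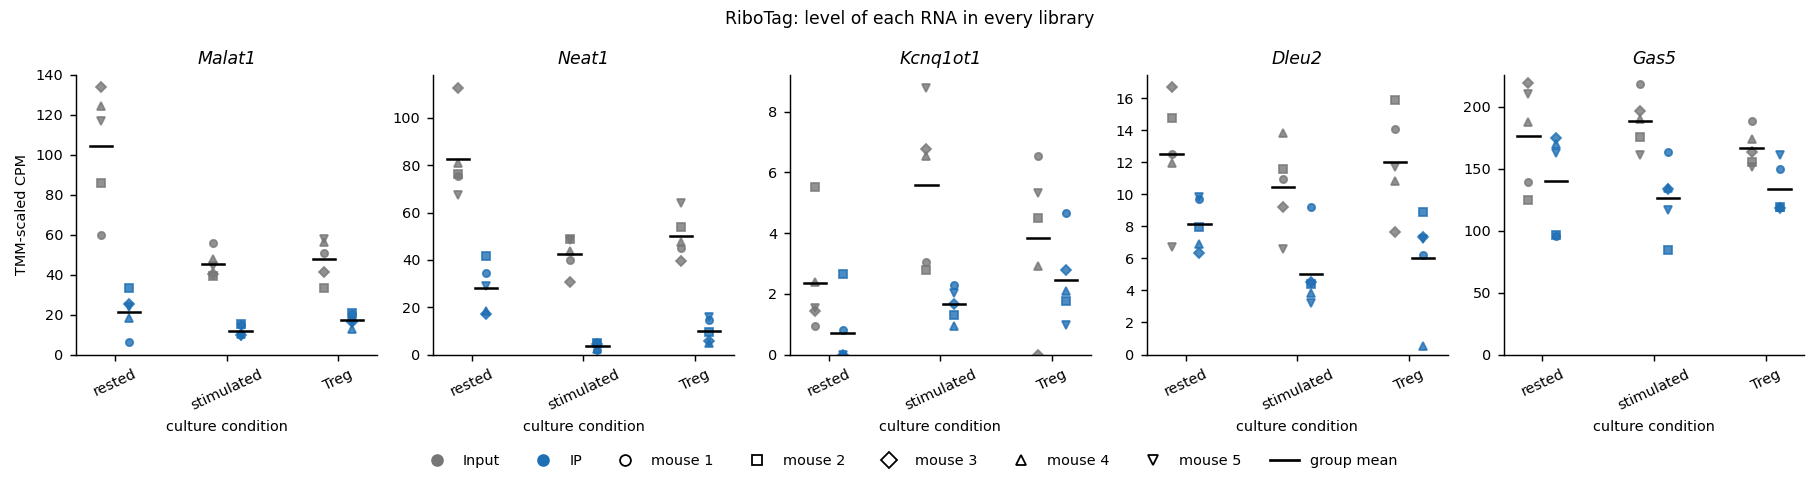
TMM-scaled CPM of each RNA in every RiboTag library by culture, Input in grey and IP in blue, 1 symbol per mouse and a line at the group mean; each panel has its own axis from 0. Malat1 and Neat1 Input fall from rested to stimulated cultures, and stimulated Neat1 IP lies between 1.84 and 4.83 CPM.

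In IP, Neat1 fell too. Its IP level was 7.62-fold lower in stimulated than in rested cells (log2 change -2.93, SE 0.32, edgeR adjusted p = 2.11e-09), in a comparison in which 31.1% of genes were called lower. Malat1 in IP was 1.78-fold lower (log2 change -0.83, SE 0.29, edgeR adjusted p = 0.0118), a call lost without mouse 3 (edgeR adjusted p = 0.067) or mouse 5 (0.0677) and with only these groups in the fit (0.0532). For Neat1 the change of the IP over Input ratio was -1.97 (SE 0.41, unadjusted p = 3.14e-05), with 0.363% of genes lower. It did not pass in edgeR (adjusted p = 0.0843), where 3 of 10751 genes did (0.0279%). It passed with the culture as a block (-1.94, edgeR adjusted p = 0.0472, with 0.0651% of genes called lower), without mouse 3 (-2.45, 0.0234), without the filter on low counts (-2.02, 0.0225) and in DESeq2 (-2.0, adjusted p = 0.00237), and with mice 3 to 5 alone it was -1.41 (edgeR adjusted p = 0.392). Mouse 3 was the mouse whose ratio did not fall, at -2.66 in rested and -2.53 in stimulated cultures.

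In IP, Gas5 changed by -0.14 on stimulation (edgeR adjusted p = 0.48), which passed with mice 3 to 5 alone (-0.40, 0.00614). Kcnq1ot1 in IP changed by 1.16 (edgeR adjusted p = 0.231), which passed without mouse 2 (2.68, 0.0296) and with mice 3 to 5 alone (4.90, 0.0161), where every rested IP library held 0 counts.

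No ratio of fractions of the 5 RNAs passed the test of a change on stimulation in the main edgeR fit. The IP over Input ratio changed by 0.36 for Malat1 (95% interval -0.41 to 1.14) and by -0.24 for Gas5 (95% interval -0.73 to 0.26). In Pol over SubPol, where 2.60% of genes were called, Gas5 changed by -0.07 (95% interval -0.39 to 0.26). Neat1 changed by -1.43 there (95% interval -2.94 to 0.07, edgeR adjusted p = 0.314), and the untreated Pol library of mouse 2 spread its values. Malat1 changed by 0.72 (95% interval -0.13 to 1.57, edgeR adjusted p = 0.379), Dleu2 by -0.02 (95% interval -1.13 to 1.09) and Kcnq1ot1 by -2.55 (95% interval -5.18 to 0.09).

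The Neat1 level in IP was called higher in cultures with Tregs, and no other level of the 5 RNAs differed past the test. Neat1 in IP went from 1.84, 4.83, 4.55, 2.38 and 4.45 CPM in stimulated cultures to 14.8, 9.57, 5.58, 4.72 and 15.8 CPM with Tregs, mice 1 to 5. It was higher in 5 of 5 mice, although the groups overlapped, and the fit gave 2.73-fold (log2 change 1.45, SE 0.35, edgeR adjusted p = 0.0104), with 3.45% of all genes called higher in that comparison. The call was lost without mouse 1 (1.10, edgeR adjusted p = 0.117) or mouse 5 (1.33, 0.0901), with mice 3 to 5 alone (1.15, 0.174) and with only these groups in the fit (1.48, 0.0531). In Input Neat1 was higher with Tregs in 5 of 5 mice too, by 0.24 (95% interval -0.26 to 0.74, edgeR adjusted p = 0.669). The change of its IP over Input ratio was 1.21 (SE 0.42, unadjusted p = 0.00762, edgeR adjusted p = 1). In that comparison edgeR called 0 of 10751 genes (125 at an unadjusted p under 0.05) and DESeq2 called 0.

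In SPEED, Neat1 in SubPol went from 18.2, 24.5, 19.3 and 25.7 CPM in stimulated cells to 32.4, 40.1, 38.0 and 36.3 CPM with Tregs. It was higher in 4 of 4 mice with no overlap, yet the change of 0.75 (95% interval -0.11 to 1.61) did not pass (edgeR adjusted p = 0.483; 1.15% of genes called). Malat1 in SubPol was higher in 4 of 4 mice as well, by 0.62 (95% interval 0.04 to 1.19, edgeR adjusted p = 0.344). Gas5 in SPEED Input was lower with Tregs in 4 of 4 mice, from 145, 141, 175 and 138 CPM to 119, 128, 116 and 130.3 CPM. The groups did not overlap, and the change of -0.28 (SE 0.11, unadjusted p = 0.0175) did not pass over all genes (edgeR adjusted p = 0.254; 0.587% of genes called). Gas5 in RiboTag Input was lower in 5 of 5 mice, by -0.18 (95% interval -0.52 to 0.17, edgeR adjusted p = 0.643; 4.53% called). Whether Treg RNA is part of the RNA of these cocultures is not given in the sources used here, nor is whether the Tregs carry the tag, and the part of Treg RNA in these values was not tested.

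In Pol, where 0.282% of genes were called with Tregs, none of the 5 RNAs was. The ratio of fractions of Gas5 did not move with Tregs past the test. Gas5 in Pol over SubPol changed by -0.10 (95% interval -0.42 to 0.23) and in IP over Input by 0.25 (95% interval -0.24 to 0.75). Malat1 in Pol over SubPol changed by -0.65 (95% interval -1.52 to 0.22) and Dleu2 by -0.09 (95% interval -1.24 to 1.06). For Pol over SubPol with Tregs, edgeR called 0 of 12428 genes (328 at an unadjusted p under 0.05) and DESeq2 0.

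**Figure D4:**
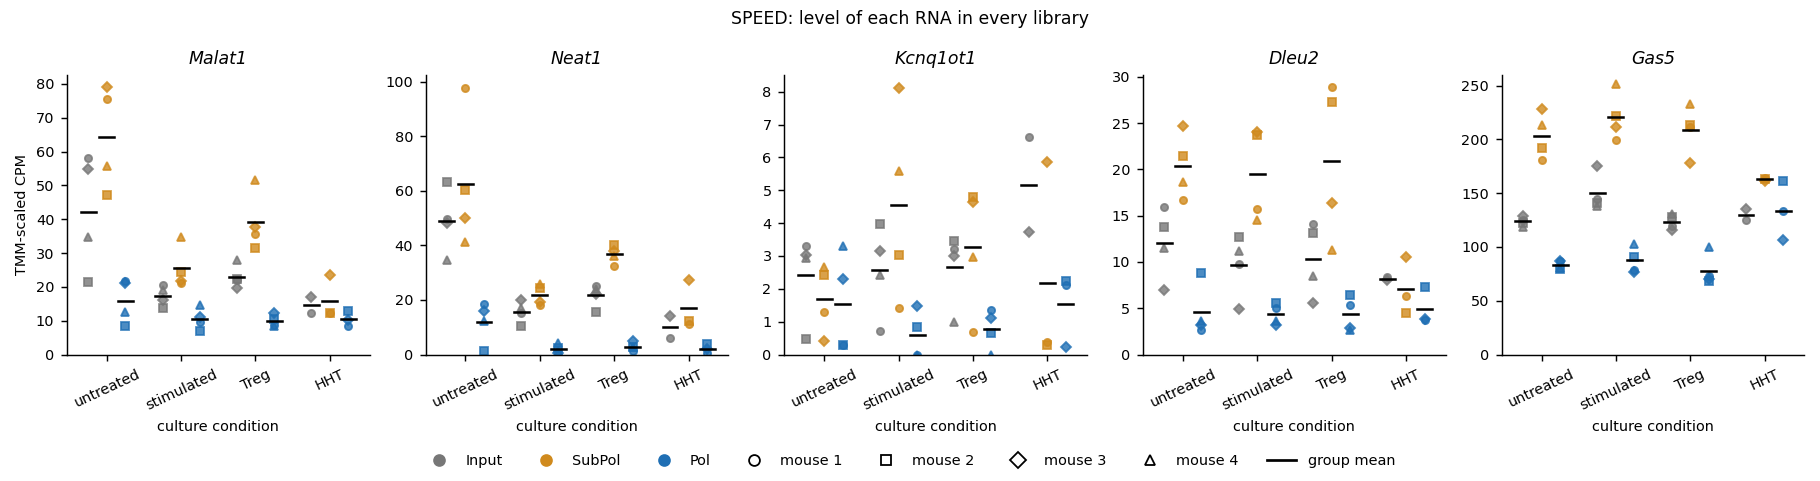
TMM-scaled CPM of each RNA in every SPEED library by culture, with Input, SubPol and Pol in separate colours, 1 symbol per mouse and a line at the group mean; each panel has its own axis from 0. Gas5 in Pol rises from 77.1 to 103 CPM in stimulated cells to between 107 and 161 CPM with HHT, while its SubPol level falls to between 161 and 164 CPM.

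After 10 min of HHT, Gas5 was higher in Pol and lower in SubPol, relative to the other RNAs of each library. In Pol it stood at 134, 161 and 107 CPM in mice 1 to 3, above 78.8, 90.9, 77.1 and 103 CPM in stimulated cells without HHT (log2 change 0.62, SE 0.13, edgeR adjusted p = 0.00159; 2.83% of genes called higher). In SubPol it stood at 164, 163 and 161 CPM, below 199.5, 222, 212 and 251 CPM (log2 change -0.44, SE 0.12, edgeR adjusted p = 0.0049; 14.2% of genes called lower). Neither pair of groups overlapped. The Pol over SubPol ratio of Gas5 went from -1.35 to -0.29, a change of 1.06 (SE 0.17, edgeR adjusted p = 2.21e-05, n = 3 against 4 mice), higher in 3 of 3 mice. In this comparison 10.3% of all genes were called higher and 12.7% lower, and 85.4% of genes had a smaller change than Gas5. The ratios of all genes lay closer together under HHT. Their SD was 1.07 in stimulated and 0.86 in HHT cultures, and 45.4% and 6.75% of genes were called in either direction. Whether the change of Gas5 goes beyond this narrowing was not tested.

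The change of the Gas5 ratio passed in every alternative run, with edgeR or DESeq2 adjusted p from 5.82e-08 to 0.0381 and values from 0.82 to 1.1. Its parts were less firm. The rise of Gas5 in Pol was not called without mouse 1 (edgeR adjusted p = 0.0814) or mouse 2 (0.0977), and the fall in SubPol was not called without mouse 2 (0.054) or without the filter on low counts (0.0526). Under HHT the Gas5 ratio of -0.29 was no longer called lower (SE 0.13, edgeR adjusted p = 0.182; 2.24% of genes called lower), though with library totals in place of TMM it was (-0.40, 0.019). Gas5 in Input under HHT, at 125 and 135 CPM in mice 1 and 3, differed from stimulated cells by -0.20 (95% interval -0.48 to 0.08, edgeR adjusted p = 0.707; 0.105% of genes called), so the level in total RNA did not move past the test in 10 min, with 2 HHT libraries.

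Dleu2 fell in SubPol with HHT. Its SubPol level was 6.32, 4.44 and 10.5 CPM in mice 1 to 3 against 15.7, 23.8, 24.1 and 14.5 CPM in stimulated cells, 2.73-fold lower with no overlap (log2 change -1.45, SE 0.42, edgeR adjusted p = 0.00764). That call was lost without mouse 1 (edgeR adjusted p = 0.062) or mouse 2 (0.11). Its Pol level, at 3.71, 7.31 and 3.85 CPM, overlapped the 3.20 to 5.54 CPM of stimulated cells. The ratio changed by 1.60 (SE 0.63, edgeR adjusted p = 0.0605), and it passed with the mouse as a block (1.55, edgeR adjusted p = 0.0435, with 11.5% of genes called higher), with the culture as a block (1.63, 0.036, with 12.2% called higher) and in DESeq2 (1.62, adjusted p = 0.0444).

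Neat1 stayed out of polysomes under HHT. It held 11.2, 12.1 and 27.4 CPM in SubPol and 0.53, 3.93 and 1.92 CPM in Pol, from 1 to 8 counts a Pol library. The groups did not overlap, and the log2 ratio was -3.02 (SE 0.64, edgeR adjusted p = 0.00269), a call lost without mouse 3 (-2.41, edgeR adjusted p = 0.21) and with Pol set over Input (-2.25, 0.287). The change against stimulated cells was 0.79 (95% interval -1.09 to 2.66, edgeR adjusted p = 0.598). Malat1 was at 12.3, 12.1 and 23.5 CPM in SubPol and 8.47, 12.9 and 10.3 CPM in Pol, overlapping in mouse 2, and its ratio changed by 0.68 (95% interval -0.28 to 1.63, edgeR adjusted p = 0.328). For Kcnq1ot1, with 4, 4 and 1 counts in Pol and 1, 1 and 24 in SubPol, the ratio changed by 1.99 (95% interval -0.89 to 4.86), and it passed without mouse 3, which holds the 24 counts (5.78, edgeR adjusted p = 0.0337). With all mice, only Gas5 of the 5 RNAs passed the test of a change with HHT in edgeR without a block, and the intervals of Malat1, Neat1, Dleu2 and Kcnq1ot1 include a change as large as that of Gas5.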

How the data were processed

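Libraries were made from total RNA of each fraction with a SMART-Seq v4 kit and NexteraXT, per the labels' protocols. The authors deposited raw counts, whole numbers of reads per Ensembl gene, in 1 table per assay. The submitters' processing notes name the build GRCm38 and the tools FastQC 0.11.3, Picard 1.134, SAMtools 1.2 and HTSeq 0.4.1. Aligner, annotation release and strand setting are not given in the sources used. Of the deposited columns, 16 without a matching sample were left aside. A pair of libraries is titled as HHT Input of mouse 1. The later was left out, leaving 30 RiboTag and 44 SPEED libraries. No library is titled as HHT Input of mouse 2. By library number the one left out stands between Treg Input of mouse 2 and untreated Input of mouse 3. It may be from mouse 2, which was not tested. In 121 pairs of libraries of a group the lowest chi-square per degree of freedom was 1.79, so none was counted as a copy.

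The main analysis used edgeR 4.0.16 under R 4.3.3 (filterByExpr with minimum count 10 and minimum total 15, TMM, and a robust quasi-likelihood fit over every group of an assay; common biological coefficient of variation 0.188 and 0.215), with limma 3.58.1 and DESeq2 1.42.0 for alternatives. Ratios of fractions and their changes were contrasts in the same fit, p-values were adjusted over all genes and intervals are at 95 percent. For ratios per culture, a prior count of 2 was added in log2 CPM. Depth limits low RNAs, and counting error alone is large under about 10 counts. The fits were tested on simulated data. The main fit has no term for mouse or culture and treats the libraries of a mouse as independent. Its p-values rest on the spread between libraries within groups, not on that of paired ratios between mice.

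Per the labels, equal mouse numbers mark the same animal. Deviations from group means of such samples had a mean correlation of 0.214 (-0.091 to 0.578) in RiboTag, and SPEED gave 0.092 (-0.352 to 0.591). Between mice the means were -0.053 and -0.03. The mouse was a block in an alternative, as was the culture.

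The 5 RNAs, the lists and the tests were chosen with earlier results of these data known. The rule named the 5 RNAs in every comparison. Further lists, cell type markers and genes of most alike pattern need symbols, which were not matched to the identifiers here, so they are not analysed. Alternatives were no filter, library totals, DESeq2, only the groups compared, blocks, Pol over Input and each mouse left out. After seeing the data, 2 more were added, RiboTag mice 3 to 5 alone and SPEED lacking 1 library (untreated SubPol, mouse 3). Sequences and positions are from RefSeq tables of GRCm38.p6, in which all 5 RNAs matched by symbol and 4 had a promoter.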

Additional observations from a re-analysis of the deposited data

Results flagged for a closer look

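A gap test of the highest and lowest library was run in 105 groups and ratios of 4 or 5 mice, and 5 stood out, where chance gives about 1 in 20. Dleu2 in stimulated RiboTag IP was 9.19 CPM in mouse 1 against 3.24 to 4.55 in the others. Dleu2 in untreated SPEED Pol was 8.80 CPM in mouse 2 against 2.63 to 3.67. Gas5 in SPEED Pol with Tregs was 99.5 CPM in mouse 4 against 68.3 to 72.7. Kcnq1ot1 in untreated SPEED Input was 0.483 CPM in mouse 2 against 2.94 to 3.29, a matter of 2 counts against 10 to 13. The log2 IP over Input ratio of Gas5 in stimulated cells was -1.05 in mouse 2 against -0.55 to -0.42 in the others.

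The Pol over SubPol ratio of Gas5 differed between HHT and stimulated cultures by 1.06 (edgeR interaction, adjusted p = 2.21e-05).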

How the results depend on the processing

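Values are fitted log2 changes or ratios with edgeR adjusted p unless DESeq2 is named. Of 1452 values under an alternative, 1363 kept their direction and side of the threshold, and the causes of the others were not tested. Depth limits Kcnq1ot1 most, with 0 to 31 counts a library, and Neat1 in Pol. CPM are relative within a library and cannot show RNA as a whole moving between fractions. The groups hold 2 to 5 mice.

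With the mouse as a replicate block, Gas5 IP over Input in stimulated cells was -0.59 (adjusted p = 0.034) and the change of Dleu2 Pol over SubPol with HHT was 1.55 (0.0435), both now past the threshold. The block turned the sign of Dleu2 in the change of Pol over SubPol on stimulation (0.025) and in Pol with Tregs (-0.012), and changed no other call or sign of the 5 RNAs. With the culture as a block, Gas5 IP over Input was -0.34 in rested, -0.59 in stimulated and -0.33 in Treg cultures, the change of Dleu2 with HHT was 1.63, and the change on stimulation was 0.052 for Dleu2 in Pol over SubPol and 0.14 for Kcnq1ot1 in IP over Input. In DESeq2, the change of Dleu2 with HHT was 1.62 (adjusted p = 0.0444) and Gas5 IP over Input in stimulated cells -0.58 (0.0485). The latter was -0.60 with only the groups compared and -0.52 with mice 3 to 5 alone. Mice 3 to 5 alone also gave -0.15 for Gas5 and 2.04 for Kcnq1ot1 in RiboTag Input on stimulation, and 2.86 for Kcnq1ot1 in the change of IP over Input.

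With Pol over Input, the stimulated ratio was -0.75 for Malat1, -1.16 for Dleu2 and -1.87 for Kcnq1ot1, and the HHT ratio was -2.25 for Neat1 and 0.031 for Gas5. The change was 0.23 for Dleu2 on stimulation and 0.10 for Gas5 with Tregs. With library totals in place of TMM, Gas5 Pol over SubPol under HHT was -0.40, Dleu2 in SubPol on stimulation 0.027 and Malat1 in Pol with Tregs 0.016. Without the filter on low counts, Gas5 in SPEED Input on stimulation was 0.27 (adjusted p = 0.0883). Without the untreated SubPol library of mouse 3, Dleu2 in SubPol on stimulation was 0.063.

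With each mouse left out in turn, ranges that crossed the threshold were 0.24 to 0.31 for Gas5 in SPEED Input on stimulation, 0.90 to 2.0 for Kcnq1ot1 in RiboTag Input on stimulation, -3.23 to -2.31 for Kcnq1ot1 and -3.76 to -2.41 for Neat1 in Pol over SubPol of stimulated and HHT cells, and 1.03 to 5.78 for the change of Kcnq1ot1 with HHT. Ranges that crossed 0 follow. On stimulation they were -0.018 to 0.23 for Gas5 in RiboTag Input, -0.003 to 0.16 for Gas5 in Pol, -0.096 to 0.048 for Gas5 in Pol over SubPol, -0.30 to 0.31 for Dleu2 in Pol, -0.14 to 0.041 for Dleu2 in SubPol, -0.26 to 0.45 for Dleu2 in Pol over SubPol, -0.55 to 0.59 for Kcnq1ot1 in SPEED Input and -0.23 to 0.68 for Kcnq1ot1 in IP over Input. With Tregs they were -0.028 to 0.14 for Gas5 in RiboTag IP, -0.013 to 0.14 for Malat1 in RiboTag Input, -0.20 to 0.17 for Malat1 in Pol, -0.11 to 0.22, -0.11 to 0.09 and -0.17 to 0.34 for Dleu2 in SPEED Input, Pol and SubPol, and -0.36 to 0.27 and -0.39 to 1.2 for Kcnq1ot1 in SPEED Input and Pol. The changes of ratios with Tregs ran from -0.11 to 0.45 (IP over Input) and -0.26 to 0.16 (Pol over SubPol) for Dleu2 and from -0.54 to 0.73 for Neat1 in Pol over SubPol. With HHT they were -0.53 to 0.055 and -0.27 to 0.17 for Malat1 in Input and Pol, -0.054 to 0.36 for Dleu2 in Pol, and -1.18 to 0.013 for Dleu2 and -1.66 to 2.56 for Kcnq1ot1 in Pol over SubPol. Untreated Kcnq1ot1 ran from -0.72 to 0.46. Where a mouse left out leaves 1 HHT Input library, its spread is taken from the other groups.

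Counts of all genes called moved by over 1.5 times in the comparisons given here, as main, lowest and highest count. For IP over Input they were 741, 179 (only the groups compared) and 1922 (culture as a block) in rested, 105, 35 (without mouse 4) and 849 (culture block) in stimulated and 199, 42 (without mouse 5) and 1207 (culture block) in Treg cultures, and 3, 0 (without mouse 2) and 19 (culture block) for the change on stimulation. For Treg over stimulated they were 487, 192 (without mouse 3) and 948 (only the groups compared) in RiboTag Input, 612, 221 (without mouse 5) and 1077 (mouse block) in IP, and in SPEED 73, 6 (without mouse 2) and 257 (DESeq2) in Input, 35, 3 (without mouse 4) and 78 (DESeq2) in Pol and 143, 19 (without mouse 2) and 331 (DESeq2) in SubPol. For HHT over stimulated they were 13, 2 (without mouse 1) and 35 (DESeq2) in Input and 674, 206 (without mouse 3) and 961 (DESeq2) in Pol. For Pol over SubPol the lowest counts came with Pol over Input, 1151 for 4929 in untreated, 1035 for 5642 in stimulated, 1184 for 5495 in Treg and 5 for 839 in HHT cultures, 1 for 323 in the change on stimulation and 44 for 2860 in that with HHT.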

Other observations

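The SPEED library that shares its title with HHT Input of mouse 1 was in no comparison. It held 4060939 counts, with Gas5 at 137 CPM, Malat1 at 17.2, Neat1 at 11.1, Dleu2 at 7.63 and Kcnq1ot1 at 2.71 CPM, after TMM scaling of all 45 libraries together. On that scale the HHT Input libraries in the fit ranged from 125 to 135 CPM for Gas5, and the stimulated Input libraries from 138 to 175 CPM.

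Within RiboTag, the sign of the fraction ratio was the same in nearly every culture for all 5 RNAs. IP was below Input in 15 of 15 cultures for Malat1 and Neat1 and in 14 of 15 for Dleu2, Gas5 and Kcnq1ot1. In SPEED, Pol was below SubPol in 15 of 15 cultures for Neat1 and Gas5, in 14 of 15 for Malat1 and Dleu2 and in 10 of 15 for Kcnq1ot1.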
